A study of Homo sapiens with 14 samples.

Results

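The V0 sector is the membrane-embedded part of the V-ATPase, the proton pump that acidifies endosomes, lysosomes and the Golgi. Guides against 10 of its genes and assembly factors were followed through a pooled CRISPR interference screen. They were taken by gene symbol in the guide names and comprised 50 guides, 5 per gene, of 91463 guides in the compared libraries. ATP6V0A1 was in sublibrary H2, ATP6AP2, VMA21 and TMEM199 were in H6, and the other 6 genes were in H3. None of the 10 was in H4.

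The screen asked which gene knockdowns alter the signal of the delta opioid receptor (DOR) once its agonist has acted. HEK293 FLP-In, an established line of human embryonic kidney origin, carried the pUBC-SSF-DOR-APEX2 transgene, a fusion of the receptor to the peroxidase APEX2, and the repressor dCas9-KRAB-BFP in clonal cells. All cells of all groups received 1 of 7 guide sublibraries, were selected with puromycin at 0.75 µg/ml for 3 days, grew for 8 days in all and were stimulated with 10 µM DADLE, an opioid peptide, for 90 minutes. They were then given 100 µM Amplex UltraRed, which the peroxidase turns fluorescent, and 50 µM hydrogen peroxide for 1 minute. The top (bright) and bottom (dim) quartile of each sublibrary were sorted. Each of the 14 groups, a top and a bottom quartile per sublibrary, was 1 library. No sort was repeated and no library came from unstimulated cells.

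In the V0 sector a ring of proteolipid subunits turns in the membrane and carries protons past the large a subunit, driven by ATP hydrolysis in the cytosolic V1 sector. V0 is put together in the endoplasmic reticulum with the help of dedicated assembly factors, before V1 docks on it. Low pH in endosomes and lysosomes is known to be needed for the breakdown of internalised receptors there.

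A guide's value is its log2(top/bottom): the share of the top library over the share of the bottom library, after adding 1 to each count, centred on the median non-targeting guide of the sublibrary. Positive values mean more cells with that guide in the bright quartile. Guides were then averaged per gene, with the SD over guides as the error. Guides of 1 gene share the sort and the target, so the p-values compare the libraries of a single sort and not repeated sorts. In a two-sided permutation test the guides of each gene were set against non-targeting guides, with p-values Benjamini-Hochberg adjusted over all 18116 targets (gene starts), with a threshold of 0.05; genes under it are called. The smallest permutation p that the draws could give was 1e-05, shared by 254 targets, which became 0.000713 after adjustment. The total counts of the 12 compared libraries ran from 18054418 to 34636612, and counting alone gave member guides an SD of 0.04 to 0.16 on the log2 scale. The SD of non-targeting guides was 0.240 in H2, 0.215 in H3 and 0.272 in H6.

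Guide RNAs recruit the repressor near a gene's start, so the bases just upstream of the start are shown for the 3 genes whose guides were enriched in bright cells and for the 2 genes whose upstream stretch held CACGTG, a form of the E-box. Each stretch is the 250 bases before a RefSeq start (GRCh38.p14), 5′ to 3′ in the direction of transcription, with every CACGTG in capitals. The guides themselves carry positions in a genome build that the labels and files do not name, and were not placed on these sequences.
ATP6AP1 (chrX:154428427-154428676, plus strand): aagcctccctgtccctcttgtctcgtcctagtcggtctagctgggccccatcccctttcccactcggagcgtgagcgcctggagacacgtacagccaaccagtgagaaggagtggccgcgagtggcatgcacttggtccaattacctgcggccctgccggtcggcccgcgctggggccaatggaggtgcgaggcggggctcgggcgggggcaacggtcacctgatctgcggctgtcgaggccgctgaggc
ATP6V0C (chr16:2513702-2513951, plus strand): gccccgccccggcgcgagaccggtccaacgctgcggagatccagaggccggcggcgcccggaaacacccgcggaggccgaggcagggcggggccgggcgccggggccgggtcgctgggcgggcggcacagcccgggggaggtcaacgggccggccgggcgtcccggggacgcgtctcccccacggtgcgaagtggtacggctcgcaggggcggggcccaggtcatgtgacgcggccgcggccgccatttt
ATP6V0A1 (chr17:42458628-42458877, plus strand): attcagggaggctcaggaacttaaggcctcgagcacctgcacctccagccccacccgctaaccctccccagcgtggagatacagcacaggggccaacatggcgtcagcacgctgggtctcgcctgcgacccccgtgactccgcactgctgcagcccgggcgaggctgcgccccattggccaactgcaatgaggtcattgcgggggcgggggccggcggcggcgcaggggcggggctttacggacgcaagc
ATP6V0B (chr1:43974710-43974959, plus strand): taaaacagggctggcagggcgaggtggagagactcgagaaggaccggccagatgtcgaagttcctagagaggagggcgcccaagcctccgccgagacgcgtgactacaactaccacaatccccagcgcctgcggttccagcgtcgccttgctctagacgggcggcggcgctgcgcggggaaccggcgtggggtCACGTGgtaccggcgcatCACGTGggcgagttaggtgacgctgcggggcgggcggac
ATP6V0D1 (chr16:67481158-67481407, minus strand): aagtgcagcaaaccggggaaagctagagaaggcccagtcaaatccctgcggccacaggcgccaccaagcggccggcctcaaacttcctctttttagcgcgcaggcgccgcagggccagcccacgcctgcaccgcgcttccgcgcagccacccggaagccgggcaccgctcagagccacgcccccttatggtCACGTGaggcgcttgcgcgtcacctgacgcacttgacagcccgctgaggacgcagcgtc

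CACGTG, which reads the same on both strands, is the core of the site bound by the TFEB family of lysosomal gene regulators. RefSeq entries were matched for 9 of the 10 genes, TMEM199 under its current symbol VMA12. The motif was present upstream of 2 of these 9, with 2 matches at ATP6V0B and 1 at ATP6V0D1, against 6.34% of 35116 upstream stretches in the RefSeq table. At ATP6V0D1 it lay within TCACGTGA, a longer form found in 0.854% of the stretches. No match was found at ATP6AP1, at ATP6V0A1 or at either of the RefSeq starts of ATP6V0C, of which the later is printed.

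Guides against 3 of the 10 genes were enriched in bright cells: ATP6AP1, an accessory subunit inside the V0 ring, ATP6V0C, the main proteolipid of the ring, and ATP6V0A1, an isoform of the large a subunit. The other 7 did not pass, and 0 were enriched in dim cells. Of all targets, 2.37% passed in the bright direction. The share was 3.9% of the targets in H2, 4.12% in H3 and 0.772% in H6. At an unadjusted permutation p under 0.05 there were 5 genes on the bright side, with ATP6AP2 and TMEM199 added, against 7.47% of all targets. On the dim side there were 0, against 4.92% of all targets. The 10 gene means had a median of 0.19, against 0.0087 for all targets. Of the 50 guides, 36 lay above 0, against 51.1% of all targeting guides, and 11 lay above every non-targeting guide of their sublibrary, against 1.2% of all targeting guides. In H2 that share was 3.83%, in H3 1.88% and in H6 0.0633%. The 11 were 4 guides each of ATP6AP1 and ATP6V0C and 3 of ATP6V0A1.

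Among the accessory proteins, ATP6AP1 had the highest mean of the 10 genes. In order along the gene its guides had 3666, 2256, 3337, 3383 and 3840 counts in the H3 top library, against 850, 592, 934, 717 and 2382 counts in the H3 bottom library. All 5 guides were higher in the top library, the first 4 by 3.12-fold to 4.11-fold and the last by 1.41-fold after centring. The mean log2 ratio was 1.56 ± 0.62 (SD, n = 5 guides), or 2.96-fold toward the top library, with a permutation adjusted p of 0.000713. Its rank was 6 of 3323 targets in H3. All 5 guides lay above 0 in this gene alone of the 10, against 5.96% of all targets with 5 guides. At least 4 guides lay above 0 in 6 of the 10 genes, against 22.5% of those targets.

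ATP6AP2, known as the (pro)renin receptor, is also built into V0 as an accessory subunit. Its guides had 2435, 1214, 3007, 2413 and 721 counts in the H6 top library, against 1557, 572, 1391, 1738 and 750 counts in the H6 bottom library. The highest 2 guides stood at 0.69 and 0.72 on the log2 scale and the last at -0.45. The mean was 0.26 ± 0.48 (SD, n = 5 guides) with a permutation adjusted p of 0.359. The unadjusted permutation p was 0.0398, and the gene did not pass after adjustment.

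In the proteolipid ring, ATP6V0C encodes subunit c and ATP6V0B subunit c″. ATP6V0C guides had 3396, 4290, 2838, 3135 and 1393 counts in the H3 top library, against 858, 802, 1176, 749 and 1534 counts in the H3 bottom library. The first 4 were 2.11-fold to 4.67-fold higher in the top library after centring, while the last went the other way at -0.33 on the log2 scale. The mean was 1.32 ± 1.02 (SD, n = 5 guides), 2.50-fold, with a permutation adjusted p of 0.000713 and rank 14 of 3323. By a rank sum test the adjusted p was 0.236 and the call was lost.

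ATP6V0B guides gave no such shift. They had 1122, 2077, 1379, 2408 and 2017 counts in the H3 top library, against 1342, 1565, 1083, 1889 and 2011 counts in the H3 bottom library. The guides lay between -0.45 and 0.21 on the log2 scale, on both sides of 0, with a mean of -0.03 ± 0.29 (SD, n = 5 guides) and a permutation adjusted p of 0.966.

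The a subunit holds the proton path and, through its isoforms, the pump's place in the cell. ATP6V0A1 guides had 1585, 1025, 3885, 3360 and 2032 counts in the H2 top library, against 692, 389, 1591, 1945 and 1705 counts in the H2 bottom library. The first 3 stood at 0.85, 1.05 and 0.94 on the log2 scale, the next at 0.44 and the last at -0.09. The mean was 0.64 ± 0.47 (SD, n = 5 guides), 1.56-fold, with a permutation adjusted p of 0.000713 and rank 63 of 3209 targets in H2. The call was lost by rank sum, with an adjusted p of 0.0905, and by edgeR's quasi-likelihood test blocked on guides, with an adjusted p of 0.0841. Higher in the top library by edgeR were 2 of the 10 genes, against 0.902% of all targets tested.

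ATP6V0A2, the isoform best known from the Golgi, had 2532, 1688, 1898, 2497 and 1462 counts in the H3 top library, against 2247, 1893, 1961, 1494 and 1212 counts in the H3 bottom library. Only the guide with 2497 counts in the top library, at 0.54, stood clear of 0 on the bright side, and the second was lowest at -0.36. The mean was -0.0017 ± 0.35 (SD, n = 5 guides), with a permutation adjusted p of 0.997. ATP6V0A1 and ATP6V0A2 were measured in different sublibraries, and the difference between them was not tested.

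The remaining V0 subunits gave means near 0. ATP6V0D1, the d subunit that joins the V1 stalk to the ring, had 971 to 3069 counts per guide in the top library and 719 to 2398 in the bottom library. Its mean was 0.13 ± 0.32 (SD, n = 5 guides; permutation adjusted p = 0.694), with 4 of 5 guides above 0. ATP6V0E1, the small e subunit, had 1056 to 2019 counts in the top and 890 to 2022 in the bottom library. Its guides kept within -0.20 and 0.07, the narrowest spread of the 10 genes, with a mean of -0.03 ± 0.12 (SD, n = 5 guides; permutation adjusted p = 0.951).

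VMA21 and TMEM199 encode assembly factors of the endoplasmic reticulum that are not part of the finished pump. VMA21 guides had 164 to 2130 counts in the H6 top library and 171 to 1498 in the H6 bottom library, with a mean of -0.04 ± 0.23 (SD, n = 5 guides; permutation adjusted p = 0.945). Its 5 guides lie within 34 bases, the shortest span among the 10 genes, whose other spans ran from 172 to 457 bases.

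TMEM199, the human counterpart of yeast Vma12, had 3190, 855, 1005, 3720 and 2938 counts in the H6 top library, against 1827, 282, 635, 3090 and 2153 counts in the H6 bottom library. The second guide stood at 1.21 on the log2 scale and the other 4 between -0.12 and 0.41. The mean was 0.36 ± 0.51 (SD, n = 5 guides) with a permutation adjusted p of 0.127, and 0.15 without the second guide. At the same position and strand as TMEM199 guides, 3 guides are listed for SARM1, and the nearest guide of POLDIP2 lies 82 bases away. Both of these genes are in H4 and were not compared, so their share in the TMEM199 value was not tested. Among genes whose symbol was matched to a chromosome, no guide of another gene lay within 1000 bases of a guide of the other 9 genes.

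From highest to lowest mean the order was ATP6AP1, ATP6V0C, ATP6V0A1, TMEM199, ATP6AP2, ATP6V0D1, ATP6V0A2, ATP6V0B, ATP6V0E1 and VMA21, and the guide ranges of all neighbours in this order overlapped. Each gene has a single value from a single sort, so likeness to other genes can only be read as a nearby place in the order of means. In H3, ATP6AP1 stood between CNOT1 (1.71) and PSMB2 (1.55), and ATP6V0C between RNF167 (1.33) and PSMA1 (1.21). In H2, ATP6V0A1 stood between CHAF1A and CDT1, both at 0.64. For comparison, DNAJC13, the gene in the title of the series, had 0.73 ± 0.25 (SD, n = 5 guides) in H3 and ranked 42, below ATP6AP1 and ATP6V0C.

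Within the 3 called genes the guide farthest downstream was the lowest. ATP6AP1's last guide lies 456 bases downstream of its first and had 0.49, ATP6V0C's lies 221 bases downstream and had -0.33, and ATP6V0A1's lies 369 bases downstream and had -0.09. Leaving out the lowest guide can only raise a mean, and without it the means were 1.83, 1.74 and 0.82 on the log2 scale. ATP6AP2 had the same arrangement, with -0.45 at 384 bases, and the other 5 genes with a RefSeq strand did not. This comparison was chosen after the values were seen. Among targets with 5 guides and a RefSeq strand, the last guide was the lowest in 147 of 362 called higher in the top library (40.6%), against 2590 of 13252 others (19.5%). The first guide was the lowest in 14.4% of the called and in 20.2% of the others. These shares were not tested, and how strongly each guide lowered its transcript was not measured.

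Guide abundance was the log2 of a guide's summed top and bottom counts relative to the median non-targeting guide. The sum covers the sorted quartiles only, so it also changes when a guide moves cells into or out of them. It is thus not independent of the ratio. ATP6AP1 and ATP6V0C guides were not scarce, with means of 0.33 ± 0.40 and 0.23 ± 0.29 (SD, n = 5 guides each), at percentiles 93.6 and 85.9 of the H3 targets. ATP6V0A1 had -0.14 ± 0.84, at percentile 44.4 of H2. VMA21 was lowest at -0.83 ± 1.35, at percentile 12.9 of H6, and owed much of this to a guide with 164 counts in the top and 171 in the bottom library, at -3.03. The SD of single non-targeting guides in this measure was 0.762 in H2, 0.686 in H3 and 1.27 in H6. Of the 50 guides, 31 lay above the non-targeting median. The share of all targeting guides above it was not counted, so the 31 cannot be read as a trait of these genes. The median of all target means in this measure was -0.084 in H2, -0.054 in H3 and -0.105 in H6. No library from before growth or from unsorted cells was compared. Loss of cells, uneven guide supply and moves between the sorted quartiles and the rest thus cannot be told apart.

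The rest of the pump was set beside these genes by the same test. The V1 list and those below were chosen with earlier results of these data known. The shares of all targets are thus not a blind background for their counts. The 13 V1 genes had a median of 0.20. Of them, 6 were enriched in bright cells and 0 in dim cells, against 2.37% and 1.52% of all targets. Beside the A, B2 and C1 subunits these were ATP6V1H at 0.61 ± 0.34, ATP6V1G1 at 0.53 ± 0.83 and ATP6V1E1 at 0.38 ± 0.43 (SD, n = 5 guides each). ATP6V1A and ATP6V1B2, which form the catalytic head, had means of 2.87 and 2.56, and ATP6V1C1 had 1.68, all above every V0 gene. The calls of ATP6V1G1 and ATP6V1E1 were lost when the guide farthest from 0 was left out, by rank sum and with edgeR, and that of ATP6V1G1 also with the median of guides. ATP6V1G3 was lowest at -0.31 with all 5 guides below 0 and a permutation adjusted p of 0.108. V0 and V1 genes were spread over different sublibraries, and the difference between the sectors was not tested. The V1 genes were in H1, H2 and H3, where 46 of 2555, 125 of 3209 and 137 of 3323 targets passed on the bright side.

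Of 6 further V0 isoforms and assembly factors, 0 passed in either direction, against 3.89% of all targets. The median of the 6 was -0.02. The lowest unadjusted permutation p among them was 0.05, that of CCDC115. CCDC115, the human counterpart of yeast Vma22 and a partner of TMEM199, was highest at 0.19 ± 0.38. ATP6V0A4, the a isoform known from kidney, was lowest at -0.14 ± 0.32 at its first start. Its second start had 0.11 ± 0.13 and did not pass. TCIRG1, the a isoform known from osteoclasts, had 0.10 ± 0.23 (SD, n = 5 guides each). Of 4 compared regulators related to yeast RAVE, which joins V1 to V0, WDR7 passed on the bright side, against 2.37% of all targets. In H3, which holds WDR7, that share was 4.12%. WDR7 had 0.40 ± 0.23 (SD, n = 5 guides, permutation adjusted p = 0.0103). DMXL1, ROGDI and DMXL2 had 0.21, 0.18 and 0.03 and did not pass. WDR7 lost its call with the median of guides, with the guide farthest from 0 removed and with edgeR.

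The lysosomal chloride and proton exchanger went the opposite way. Of 8 compared lysosomal channels and exchangers, 2 were enriched in dim cells and 0 in bright cells, against 1.52% of all targets enriched in dim cells. The 2 were CLCN7, the exchanger, and OSTM1, its obligate partner subunit. Both are in H3, where 109 of 3323 targets were enriched in dim cells. CLCN7 guides had 2076, 1133, 2207, 2005 and 1379 counts in the H3 top library, against 2357, 1780, 3525, 2945 and 2220 counts in the H3 bottom library. All 5 lay below 0, between -0.88 and -0.38, with a mean of -0.75 ± 0.21 (SD, n = 5 guides; permutation adjusted p = 0.000713).

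OSTM1 had -0.35 ± 0.49 (SD, n = 5 guides; permutation adjusted p = 0.0309), with 4 of 5 guides below 0, and its call was lost without the guide farthest from 0, by rank sum and with edgeR. CLCN6, CLCN3, TPCN1, MCOLN1, TMEM175 and TPCN2 had means between -0.14 and 0.24 and did not pass. All 6 subunits of HOPS, the tether that fuses endosomes with lysosomes, were called higher in the top library, against 2.37% of all targets. All 6 are in H3, where that share was 4.12%. The subunits had a median of 0.91, with VPS41 taken at its first start. The second start of VPS41 had 0.0033 and did not pass (permutation adjusted p = 0.995). VPS18 and VPS33A lost their calls by rank sum and with edgeR. VPS33A also lost it with the median of guides and without the guide farthest from 0. The lists were described by counts and medians alone.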

How the data were processed

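Guide counts of a pooled CRISPR interference screen were analysed. The values are whole-number counts per guide, deposited by the authors without normalization, and Bowtie is the aligner named in the submitters' processing notes, without a version. Per the labels' protocols, guides were amplified from genomic DNA of sorted cells in 27 PCR cycles. The labels mention no molecular identifiers, so PCR copies are not told apart and counting errors cover counting only. Groups follow the titles in the labels, with 1 library each. The H4 top table held 35 complete guides, so H4 was not compared.

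Guides unlisted in 1 library were taken as 0. Guides with under 50 counts in both libraries were left out, 375 in all and 0 of the 50 described here, and targets needed at least 3 guides. Each target's mean was compared with 100000 random draws from its own guides and the 241 to 308 non-targeting guides of its sublibrary. With 1 library in each group, edgeR has no replicates to fit and was not the main test. As an alternative, edgeR 4.0.16 (R 4.3.3) was run on the 17071 targets with 5 guides, with guides as blocks. Tools were Python 3.11.15, numpy 2.4.6, pandas 2.3.3 and scipy 1.17.1.

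All 10 genes were named, with 5 lists of related genes, the genes on either side of each called gene in the order of means, and guides of other genes within 1000 bases. ATP6V0A4 and VPS41 were taken at their first start. The genes and lists were chosen with earlier results of these data known. CLCN5 and NCOA7 are in H4 and were not compared.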

Additional observations from a re-analysis of the deposited data

How the results depend on the processing

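Of the 10 genes, 3 were called on the bright side and 0 on the dim side, and 12 alternatives were tried in pseudocount, centring, count filter, guide summary, test and adjustment. The count stayed at 3, with the same genes, in 10 of them; it was 1 (ATP6AP1) by rank sum and 2 (ATP6AP1 and ATP6V0C) with edgeR. ATP6AP1 passed in all 12, with means from 1.44 to 1.73, ATP6V0C in 11, from 1.10 to 1.79, and ATP6V0A1 in 10, from 0.54 to 0.85. The other 7 genes passed in none. Over all targets, 430 were enriched in bright cells and 275 in dim cells; without the guide farthest from 0 in every target these were 203 and 109, and with edgeR 154 and 100. Leaving out that guide lowers the number of guides and also shifts the means. Those of ATP6AP1, ATP6V0C and ATP6V0A1 moved toward 0, to 1.44, 1.10 and 0.54. The mean of ATP6V0A2 moved away from 0, from -0.0017 to -0.14. The fewer guides and the shifted means were not separated, and the cause of the edgeR difference was not tested. CLCN7 passed in all 12, OSTM1 and WDR7 in 9. No direction reversed among called genes. No paired analysis was possible because each group holds 1 library. The counting SD of the 50 guides was at most 0.16, which leaves out PCR error, and without a second sort the error between sorts is not known.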
